A study of Mus musculus with 2 samples.

Results

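Heat shock proteins and chaperones were described through 10 genes, taken by symbol from the 28692 genes counted: Hspa1a, Hspa1b, Hspa8, Hsph1, Dnaja1, Dnajb1, Hsp90aa1, Hspd1, Hspe1 and Hspb1. The members were chosen by the measured difference in their levels between the 2 libraries of this study. Every ratio between the libraries is therefore a description of those libraries, and none was tested. The study sequenced single CD31+ cells, taken with antibody-coated Dynabeads from enzymatically digested mesentery of C57BL/6 pups at P8, and asked what loss of the folliculin gene Flcn does to vascular cells. The Flcn iΔEC pups were Cdh5-BAC-CreERT2+ Flcn flox/flox, in which Cre is driven by regulatory sequence of the endothelial cadherin gene Cdh5. The other library was labelled control, with no genotype stated. Both groups were injected with 40 µg of 4-hydroxytamoxifen on P2, then P3.5, then P5 and again P6.5, and each library held the pooled cells of 3 mice.

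HSP70 proteins bind exposed hydrophobic stretches of unfolded clients and release them in cycles of ATP hydrolysis. J-domain proteins bring clients and start hydrolysis, HSP110 proteins exchange the nucleotide, and HSP90 completes the folding of kinases and receptors. Mitochondrial HSP60 folds imported proteins in a chamber capped by HSP10, and small heat shock proteins hold aggregating clients without ATP. Hspa8 and the mitochondrial pair are made in unstressed cells. Hspa1a and Hspa1b are the classical targets of heat shock factor HSF1, which binds inverted repeats of GAA and TTC near their starts.

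The libraries held 6814 control and 4459 Flcn iΔEC cells, with median depths of 7283 and 8587 UMIs, and 6 cell barcodes occurred in both. Clusters were named from marker lists, and each name below stands for cells like that type. Of 11273 cells, 8.76% stayed unnamed, and 19 types with at least 50 cells in 1 library were described: 7 of lymphocytes, 8 of endothelial cells, a proliferating non-endothelial cluster, macrophages, erythroid cells and intestinal epithelial cells. The libraries also stood apart in Xist, the RNA of the inactive X chromosome, at 0.0944 CPM (UMIs per 1000000) in control and 1197 CPM in Flcn iΔEC lymphocytes. Genotype, library and sex of the pups cannot be told apart here. Among endothelial cells, Flcn itself had 9.68 CPM (control) and 9.70 CPM (Flcn iΔEC). These 3′ reads need not cover the deleted part, so the level does not check the labels.

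The sequences upstream of 3 members are shown because these were the members with the largest ratios in pooled lymphocytes. They are the 250 bases before the RefSeq start on build GRCm38.p6, 5′ to 3′, with matches to GAANNTTC in capitals. Hspa1a lies at chr17:34972157-34972406 and Hspa1b at chr17:34959239-34959488, both on the minus strand. Hspb1 lies at chr5:135887669-135887918 on the plus strand.
Hspa1a: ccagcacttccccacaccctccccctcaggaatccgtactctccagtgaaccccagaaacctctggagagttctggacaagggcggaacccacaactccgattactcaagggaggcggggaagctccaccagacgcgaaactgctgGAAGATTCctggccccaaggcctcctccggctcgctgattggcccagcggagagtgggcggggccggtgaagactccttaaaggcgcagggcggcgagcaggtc
Hspa1b: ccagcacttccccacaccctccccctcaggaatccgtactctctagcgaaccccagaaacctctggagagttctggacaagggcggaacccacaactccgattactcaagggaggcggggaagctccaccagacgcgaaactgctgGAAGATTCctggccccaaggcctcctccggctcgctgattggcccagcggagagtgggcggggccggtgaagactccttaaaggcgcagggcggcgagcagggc
Hspb1: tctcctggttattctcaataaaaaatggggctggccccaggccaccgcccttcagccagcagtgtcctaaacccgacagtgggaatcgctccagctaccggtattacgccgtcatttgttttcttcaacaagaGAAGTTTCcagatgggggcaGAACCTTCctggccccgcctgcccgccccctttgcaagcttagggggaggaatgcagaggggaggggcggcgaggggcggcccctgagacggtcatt

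Upstream of Hspa1a and Hspa1b, 247 of the 250 bases were identical, and each held 1 match 104 bases before the start. Hspb1 held 2 matches, 97 and 117 bases before its start. GAANNTTC or TTCNNGAA, each of which reads the same on both strands, was searched in windows from 250 bases before to 50 bases after each start. Of 32851 such windows in the RefSeq table, 15.1% held 1 or more matches. The table held 13 windows of 8 members, of which 8 windows (61.5%) held a match, and Hspa8 and Hsp90aa1 were without an entry. Hspd1 and Hspe1, which face away from each other and share these matches, held 3 overlapping ones, though another Hspd1 window held none. Both Hsph1 windows, which overlap, held 3, and 1 of 3 Dnaja1 windows held 1. Neither window of Dnajb1 held a match. Among 81 windows of the other chaperones, 17 (21.0%) held 1. A match is a description of letters and not evidence of binding. By GENCODE vM21 the genes lie on chromosome 17 (Hspa1a at 34969190-34972156, Hspa1b at 34956436-34959238), 9 (Hspa8 at 40800984-40810087), 5 (Hsph1 at 149614287-149636376, Hspb1 at 135887919-135889563), 4 (Dnaja1 at 40722150-40737149), 8 (Dnajb1 at 83608193-83612653), 12 (Hsp90aa1 at 110690605-110702728) and 1 (Hspd1 at 55077835-55088243, Hspe1 at 55088132-55091307).

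Hspa1a, the stress-inducible cytosolic HSP70, was higher in Flcn iΔEC than in control cells in 19 of 19 types. Its level in pooled lymphocytes was 32.4 CPM in control cells against 1319 CPM in Flcn iΔEC cells, a ratio of 40.7 (95% interval 38.5 to 43.0). In pooled endothelial cells it was 53.8 and 337 CPM, a ratio of 6.25 (95% interval 5.76 to 6.80). The endothelial pool differed in make-up, with lymphatic types at 111 of 487 control cells and 370 of 783 Flcn iΔEC cells, and Cxcl12-led cells at 135 and 44. Its values therefore mix the share of each type with its level, and by type the endothelial ratio ran from 1.94 to 36.8. The control levels of the 2 pools thus lay within a factor of 2 of each other, while the Flcn iΔEC levels were far apart. With 1 library per condition these intervals, from exact Poisson and conditional binomial limits, cover counting error only.

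**Figure D1:**
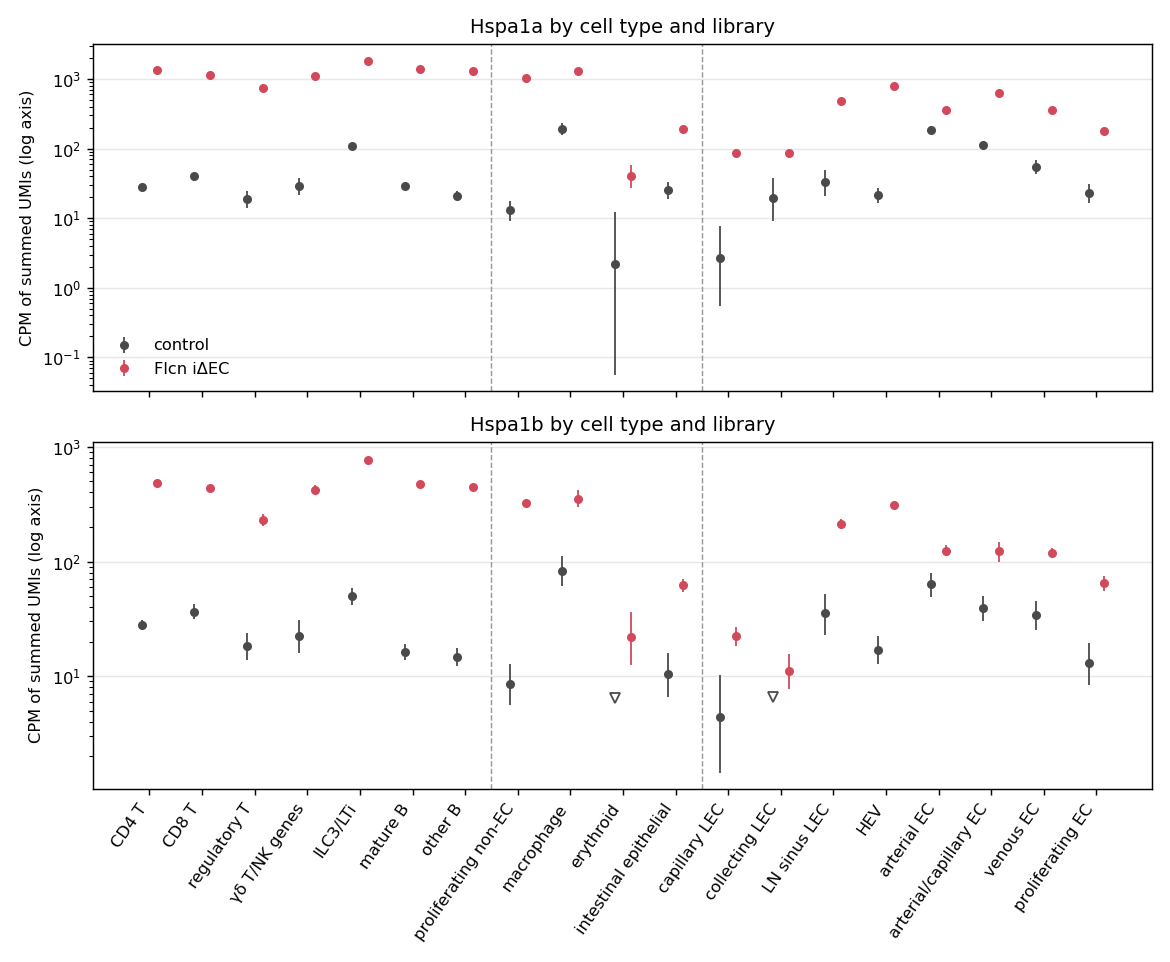
Level of Hspa1a and Hspa1b in each of the 19 cell types (x axis) as CPM of summed UMIs on a log axis, with a point for each library and bars for the exact 95% Poisson interval, and an open triangle at the limit of 3 counts where no UMI was seen. Flcn iΔEC points of the 7 lymphocyte types lay between 744 and 1832 CPM for Hspa1a, and those of the 8 endothelial types between 85.4 and 791 CPM.

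Among T cells, the Hspa1a level was 28.2 CPM in control and 1333 CPM in CD4 T cells of Flcn iΔEC pups. It was 40.0 in control and 1160 CPM in Flcn iΔEC CD8 T cells, and 29.3 and 1118 CPM in a cluster with both γδ T and NK genes. That cluster was led by Trdc, Tcrg-C4 and Tcrg-C2 of the γδ T cell receptor and by Klrk1, Ncr1, Klrb1c and Klrd1 of NK cells, so it is named here as γδ T/NK-gene cells and not as 1 of these types. Regulatory T cells, marked by Foxp3, had the lowest Flcn iΔEC level of the lymphocytes, at 744 CPM against 18.7 CPM in control. Group 3 innate lymphoid or lymphoid tissue inducer cells, with Il22 among their leading genes, had the highest level of any type in the Flcn iΔEC library at 1832 CPM. They were also highest among lymphocytes in the control library, at 108 CPM, which left them with the smallest lymphocyte ratio, 16.9 (95% interval 14.9 to 19.2). Mature B cells, marked by Fcer2a, had 28.9 and 1405 CPM. The remaining B cells had 21.2 and 1292 CPM, with the largest lymphocyte ratio, 61.0 (95% interval 52.6 to 71.2). No control lymphocyte type reached the level of any Flcn iΔEC lymphocyte type.

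In the proliferating non-endothelial cells, a cluster led by cell cycle genes, Hspa1a was at 13.1 and 1046 CPM, a ratio of 79.9 (95% interval 58.1 to 113). Macrophages, marked by C1qa, C1qb and C1qc, had 193 CPM in control, with an interval that overlapped that of arterial cells at 187 CPM, and 1311 CPM in Flcn iΔEC, a ratio of 6.79 (95% interval 5.51 to 8.43). Their 1311 CPM lay among the levels of the lymphocytes, so the smaller ratio came with a higher control level. The macrophages were few and shallow, with 93 and 53 cells and median depths of 1911 and 2226 UMIs, and 1 cell held 27.5% of the control and 1 cell 31.9% of the Flcn iΔEC Hspa1a UMIs. Without the cell with the most UMIs the control level was 143 CPM in macrophages and 157 CPM in arterial cells, which turns their order. Intestinal epithelial cells, marked by Fabp1 and Fabp2, had 25.1 and 189 CPM, a ratio of 7.50 (95% interval 5.67 to 10.1). Erythroid cells, which have shut down most genes but haemoglobin, had 1 UMI of Hspa1a in control and 29 in Flcn iΔEC, or 2.17 and 40.1 CPM, a ratio of 18.5 (95% interval 3.06 to 754).

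Endothelial types differed more among themselves. High endothelial venule (HEV) cells, through which lymphocytes enter lymph nodes and which were marked by Glycam1, had 21.5 CPM in the control library and 791 CPM in the other. Their ratio, 36.8 (95% interval 28.9 to 47.6), lay inside the lymphocyte range of 16.9 to 61.0. Arterial cells had the highest endothelial control level, 187 CPM, and 364 CPM in Flcn iΔEC, which was the smallest ratio of any type, 1.94 (95% interval 1.67 to 2.27). The Cxcl12-led cells with both arterial and capillary markers had 112 and 626 CPM, venous cells 54.5 and 357 CPM, and proliferating endothelial cells 22.8 and 182 CPM.

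Of the lymphatic endothelial types (LECs), the capillary and collecting ones had the lowest endothelial levels in the Flcn iΔEC library. Lymph node sinus LECs did not. Capillary LECs were also lowest in control, where the interval of collecting LECs overlapped those of HEV, proliferating endothelial and lymph node sinus cells. Without the cell with the most UMIs the control level was 9.92 CPM in lymph node sinus and 11.4 CPM in collecting LECs, which turns their order. Capillary LECs had 3 UMIs of Hspa1a in control, or 2.65 CPM, and 85.4 CPM in Flcn iΔEC, a ratio of 32.2 (95% interval 10.9 to 157). There 1 control cell held 2 of the 3 UMIs and 1 Flcn iΔEC cell 80, and without these cells the ratio was 76.3 (95% interval 13.6 to 3023). The larger of the 2 clusters of this type, with 47 and 163 cells, had the collecting marker Foxp2 among its leading genes beside the general lymphatic marker Mmrn1. Collecting LECs had 19.8 and 86.1 CPM, but 1 Flcn iΔEC cell held 123 of the 255 UMIs. Without the cell with the most UMIs in each library their ratio of 4.35 became 3.96. Lymph node sinus LECs, marked by Marco and Clec4g, had 32.6 and 486 CPM, where 1 control cell held 73.9% of the UMIs and 1 Flcn iΔEC cell 26.8%. Their ratio of 14.9 (95% interval 9.87 to 23.7) became 37.5 (95% interval 17.1 to 103) without these cells. By level in the Flcn iΔEC library, innate lymphoid cells came first and mature B cells next. CD4 T cells, macrophages and the remaining B cells followed with overlapping intervals, then the CD8 T, γδ T/NK-gene and proliferating non-endothelial cells. HEV cells and regulatory T cells overlapped, and the other endothelial types and the epithelium lay below them. Collecting and capillary LECs overlapped near the foot of the order, above erythroid cells.

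Thinning each cell to 2000 UMIs gave shares of cells with an Hspa1a UMI that do not depend on depth. They were 4.46% (95% exact binomial interval 3.92 to 5.04) in control and 63.3% (61.5 to 65.1) in Flcn iΔEC lymphocytes. In endothelial cells they were 7.42% (5.22 to 10.2) and 21.1% (18.3 to 24.2). Without thinning the shares were 13.3% and 80.9% in lymphocytes and 26.3% and 48.5% in endothelial cells, whose median depths of 14840 and 23371 UMIs were well above the 7121 and 7774 UMIs of the lymphocytes. Background of free RNA was not estimated. Erythroid cells, used here as a low reference, had a thinned share of 7.84% (2.18 to 18.9) in the Flcn iΔEC library. The thinned shares of capillary LECs, 5.35%, and collecting LECs, 5.13%, had intervals that overlapped the erythroid one and are not told from it. Their levels, 85.4 and 86.1 CPM, lay above the 40.1 CPM of erythroid cells, and no order is read from these shares. Among those erythroid cells 1 held 55.2% of the Hspa1a UMIs, and without it their level was 18.5 CPM. HEV cells reached 63.5%, the share of the lymphocytes, and macrophages 37.0% of the 27 cells deep enough to thin. In the control library the thinned share lay between 0.746% in the proliferating non-endothelial cells and 16.7% in arterial cells wherever a UMI was seen. It was 0 in erythroid cells and the 3 LEC types. A limit of 3 cells allows up to 9.38% of the 32 erythroid, 4.76% of the 63 capillary, 13.6% of the 22 collecting and 14.3% of the 21 lymph node sinus cells.

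**Figure D2:**
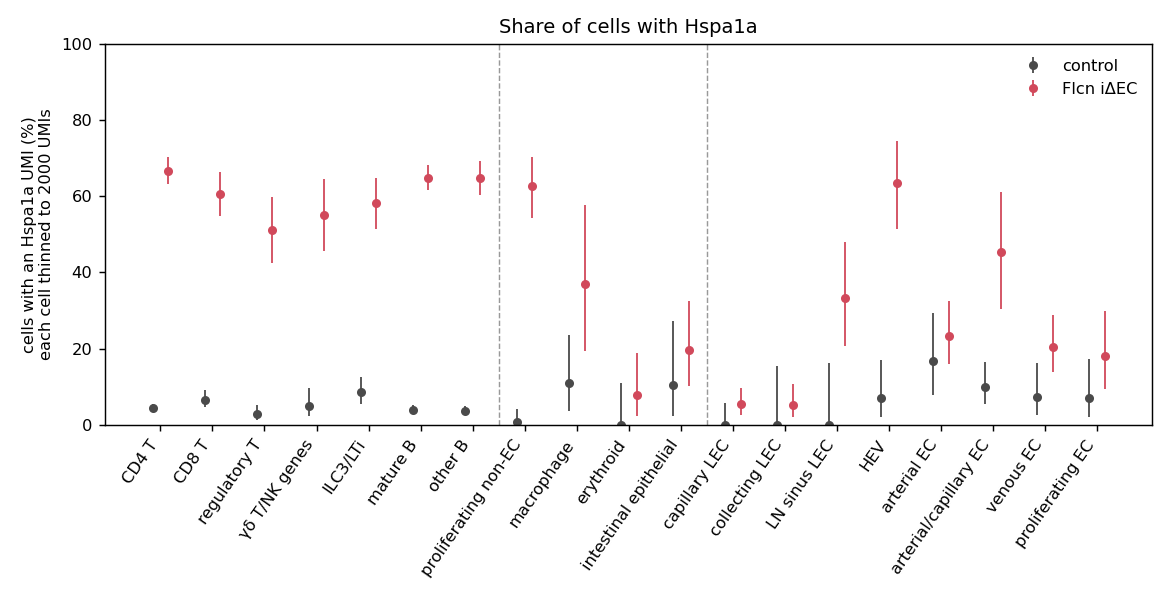
Share of cells with 1 or more Hspa1a UMIs (y axis, percent) in each cell type (x axis) and library after thinning each cell to 2000 UMIs, with exact 95% binomial intervals. Flcn iΔEC shares of the lymphocyte types lay between 51.1% and 66.8%, and HEV cells were the endothelial type among them.

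Within the Flcn iΔEC lymphocytes the Hspa1a UMIs were spread over many cells: 37.0% of the thinned cells held 3 or more, and the 280 cells with the most, 10% of them, held 42.5% of the UMIs. In Flcn iΔEC endothelial cells 6.65% held 3 or more, and the 77 cells with the most held 78.0%. Lymphocytes with more Hspa1a also had a higher mean of every other member, of which Hsp90aa1, Dnaja1 and Hspa1b are given here. After thinning, 1025 cells had 0 Hspa1a UMIs, 735 had 1 or 2 and 1034 had 3 or more. In this order the mean of Hsp90aa1 was 3.01, 3.64 and 5.48 UMIs. Over the same cells the mean of Dnaja1 was 1.64, 2.01 and 2.69 UMIs and that of Hspa1b 0.445, 0.812 and 1.63 UMIs. Hsp90ab1, a gene outside the list, rose as well, at 5.46, 5.90 and 7.13 UMIs. Gapdh, a glycolytic enzyme, was at 1.30, 1.20 and 1.24 UMIs. The cells with 0 Hspa1a UMIs after thinning in the Flcn iΔEC library still had more Hsp90aa1 than those in control, where the mean was 1.56 UMIs over 5123 cells. Some of these cells held Hspa1a UMIs before thinning, so the class is not one of cells without Hspa1a.

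Hspa1b encodes nearly the same protein as Hspa1a from the next gene on chromosome 17. The last 500 bases of the 2 transcripts shared none of 410 stretches of 91 bases, but a run of 638 identical bases lies further in, so reads there cannot be split between them. Hspa1b was at 24.2 CPM in control lymphocytes and 473 CPM in those of Flcn iΔEC pups, a ratio of 19.5 (95% interval 18.3 to 20.8). In endothelial cells it was at 25.4 and 119 CPM, a ratio of 4.67 (95% interval 4.14 to 5.29). It was higher in Flcn iΔEC in 19 of 19 types, like Hspa1a, and by less in pooled lymphocytes. Hspa1a UMIs per Hspa1b UMI were 1.34 and 2.79 in lymphocytes and 2.12 and 2.84 in endothelial cells. By type, Hspa1b in the Flcn iΔEC library was highest in innate lymphoid cells at 770 CPM and lowest in collecting LECs at 11.1 CPM. Those LECs had no Hspa1b UMI in control, and neither had erythroid cells. In the LECs this makes Flcn iΔEC at least 1.69-fold higher against a limit of 3 counts in the control library. There 1 cell held 7 of the 33 Flcn iΔEC UMIs. Without the cell with the most UMIs in each library the lower limit of the ratio was 0.988, so its interval reached 1. HEV cells had 17.0 and 313 CPM, a ratio of 18.4.

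Hspa8, the constitutive HSP70 of the cytosol, was at 1575 and 1920 CPM in lymphocytes, a ratio of 1.22 (95% interval 1.20 to 1.23), and at 1607 and 1779 CPM in endothelial cells, a ratio of 1.11 (95% interval 1.09 to 1.13). Mature B cells had the largest ratio, 1.47 (1177 and 1732 CPM), and also the lowest lymphocyte level in both libraries. Ratios of the T types were smaller, from 1.09 in regulatory T cells (2092 and 2287 CPM) through 1.15 in CD8 T cells (1691 and 1950 CPM) to 1.19 in CD4 T cells (1613 and 1916 CPM). Capillary LECs were the type with an interval below 1, at 1881 and 1743 CPM (ratio 0.927, 95% interval 0.884 to 0.972), but without the cell with the most UMIs in each library the ratio was 0.956 and its interval reached past 1. Macrophages had 1913 and 1858 CPM, with an interval that spanned 1.

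Hsph1 encodes the HSP110 exchange factor that frees ADP from HSP70. It was at 34.4 and 135 CPM in pooled lymphocytes, a ratio of 3.91 (95% interval 3.68 to 4.17). Mature B cells led with 25.3 and 167 CPM (ratio 6.60), followed by innate lymphoid cells at 27.7 and 159 CPM (ratio 5.75) and the remaining B cells at 30.7 and 145 CPM (ratio 4.72). Below them lay CD4 T cells at 38.6 and 114 CPM (ratio 2.97) and regulatory T cells at 50.8 and 98.8 CPM (ratio 1.94). All 7 lymphocyte types had an interval above 1. In endothelial cells the pooled level was 39.1 and 47.0 CPM, a ratio of 1.20, and the interval of only HEV cells (23.1 and 65.5 CPM, ratio 2.84) and venous cells (46.9 and 72.5 CPM, ratio 1.55) lay above 1. Capillary LECs went the other way, with 126 and 41.7 CPM, a ratio of 0.330 (95% interval 0.265 to 0.411). On the log2 scale this was -1.60, but -0.32 when clusters were drawn at a coarser resolution of 0.4 and -0.22 without integration of the libraries, so its size depends on which cells are counted as capillary LECs. Among all genes measured in capillary LECs, 6.56% were at least 2-fold lower.

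Dnajb1 and Dnaja1 are J-domain proteins of the cytosol, Dnajb1 stress-inducible and Dnaja1 abundant without stress. Dnajb1 was at 104 and 216 CPM in lymphocytes, a ratio of 2.08, and at 63.7 and 79.3 CPM in endothelial cells, a ratio of 1.25 (95% interval 1.14 to 1.36). Its highest level was in Flcn iΔEC innate lymphoid cells, at 389 CPM against 152 CPM in control. HEV cells had 84.0 and 181 CPM (ratio 2.16) and arterial cells 37.8 and 66.8 CPM (ratio 1.77). The intervals of the other 6 endothelial types spanned 1.

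Dnaja1 ratios lay on both sides of 1. The gene was at 536 and 1023 CPM in lymphocytes, a ratio of 1.91 (95% interval 1.87 to 1.94), and at 614 and 601 CPM in endothelial cells, a ratio of 0.980 (95% interval 0.952 to 1.01). Mature B cells had 387 and 1048 CPM (ratio 2.71) and the remaining B cells 367 and 904 CPM (ratio 2.46). The T and innate lymphoid types, with ratios of 1.48 to 1.70, started from control levels of 554 to 805 CPM. The interval lay above 1 in HEV cells (550 and 818 CPM) and lymph node sinus LECs (573 and 648 CPM, ratio 1.13), though in the latter it reached 1 without the cell with the most UMIs in each library. It lay below 1 in capillary LECs, collecting LECs, Cxcl12-led cells and venous cells. Collecting LECs had 860 and 614 CPM (ratio 0.714), and venous cells 660 and 525 CPM (ratio 0.795). Intestinal epithelial cells, at 343 and 249 CPM (ratio 0.728), also lay below 1. Whether the ratios differ between classes was not tested.

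Hsp90aa1, the stress-inducible cytosolic HSP90, was at 792 and 1925 CPM in lymphocytes, a ratio of 2.43 (95% interval 2.40 to 2.47), and at 474 and 691 CPM in endothelial cells, a ratio of 1.46. The range over lymphocyte types was narrow, from 1.84 in regulatory T cells (799 and 1467 CPM) to 2.81 in mature B cells (796 and 2237 CPM). Endothelial ratios ran from 1.17 in capillary LECs to 1.86 in HEV cells, and every endothelial interval lay above 1. In collecting LECs it reached 1 without the cell with the most UMIs in each library, with a ratio of 1.16 in place of 1.26. Intestinal epithelial cells had 428 and 774 CPM (ratio 1.81), and macrophages 597 and 839 CPM (ratio 1.40). Its constitutive paralog Hsp90ab1, a gene outside the list, was at 2198 and 3114 CPM in lymphocytes (ratio 1.42) and at 2771 and 2887 CPM in endothelial cells (ratio 1.04).

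**Figure D3:**
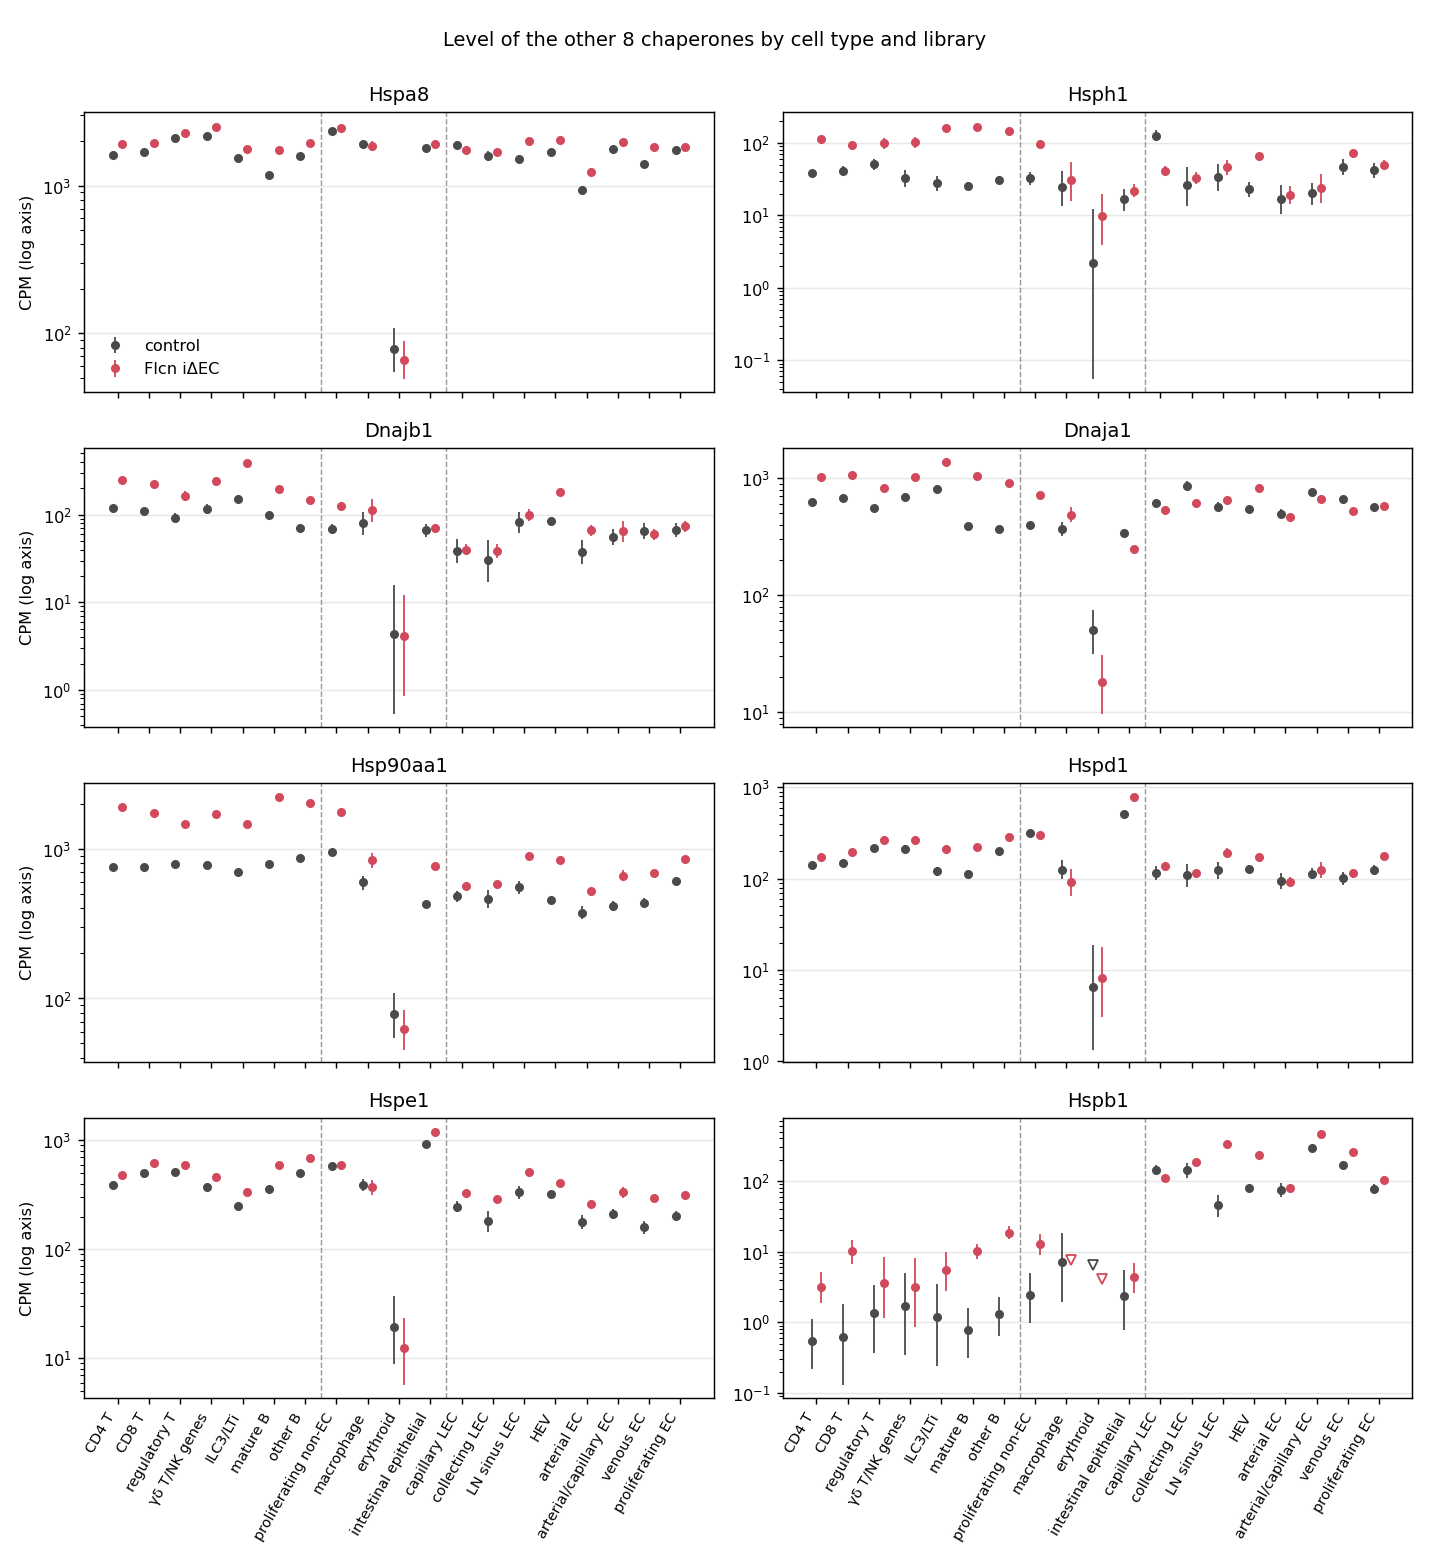
Level of the other 8 members in each of the 19 cell types (x axis) as CPM of summed UMIs on log axes, 1 panel per gene, with a point for each library and exact 95% Poisson intervals. Hspa8 points of the 2 libraries nearly coincide in most types, Hsp90aa1 points separate in lymphocytes, and Hspb1 is high in endothelial and low in lymphocyte types.

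Hspd1 and Hspe1 encode HSP60 and HSP10 of the mitochondrial chaperonin, from neighbouring genes on chromosome 1. Hspd1 was at 155 and 226 CPM in lymphocytes (ratio 1.46) and at 117 and 141 CPM in endothelial cells (ratio 1.21). Hspe1 was at 419 and 563 CPM (ratio 1.34) and at 241 and 336 CPM (ratio 1.40) in the same pools. Both were highest in intestinal epithelial cells, Hspd1 at 510 and 786 CPM (ratio 1.54) and Hspe1 at 932 and 1188 CPM (ratio 1.27). Every endothelial interval lay above 1 for Hspe1, with the largest ratio in venous cells (159 and 298 CPM, 1.87), but for Hspd1 only 3 of 8 did. In lymphocytes both had their largest ratio in mature B cells, where Hspd1 was at 114 and 222 CPM (1.95) and Hspe1 at 357 and 595 CPM (1.67). Their smallest ratios were in T cells, 1.22 for Hspd1 in CD4 T cells (140 and 171 CPM) and 1.16 for Hspe1 in regulatory T cells (511 and 591 CPM). All 7 lymphocyte intervals lay above 1 for both. In the proliferating non-endothelial cells both intervals spanned 1. The Hspd1 ratio there was 0.952 (95% interval 0.865 to 1.05) and the Hspe1 ratio 1.02 (95% interval 0.954 to 1.09).

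Hspb1, the small heat shock protein HSP27, which also acts on actin filaments, had its higher levels in endothelial types. Its control level was 128 CPM in endothelial cells and 0.897 CPM in lymphocytes. The Flcn iΔEC lymphocyte level was 9.33 CPM, a ratio of 10.4 (95% interval 7.35 to 15.1), though 3.58% of the Flcn iΔEC lymphocytes held a UMI without thinning and 1.15% after it. It was highest in the remaining B cells, with 11 UMIs in control and 97 in Flcn iΔEC (1.29 and 18.6 CPM). In endothelial cells the Flcn iΔEC level was 186 CPM, a ratio of 1.46 (95% interval 1.37 to 1.55). Cxcl12-led cells had the highest level in both libraries, 292 and 462 CPM, and HEV cells were at 78.9 and 235 CPM (ratio 2.98). Capillary LECs had 142 and 111 CPM (ratio 0.780). In lymph node sinus LECs, at 45.4 and 339 CPM, 1 cell held 365 of the 545 Flcn iΔEC UMIs. Without the cell with the most UMIs in each library their ratio of 7.48 became 4.41 (95% interval 2.64 to 7.88).

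**Figure D4:**
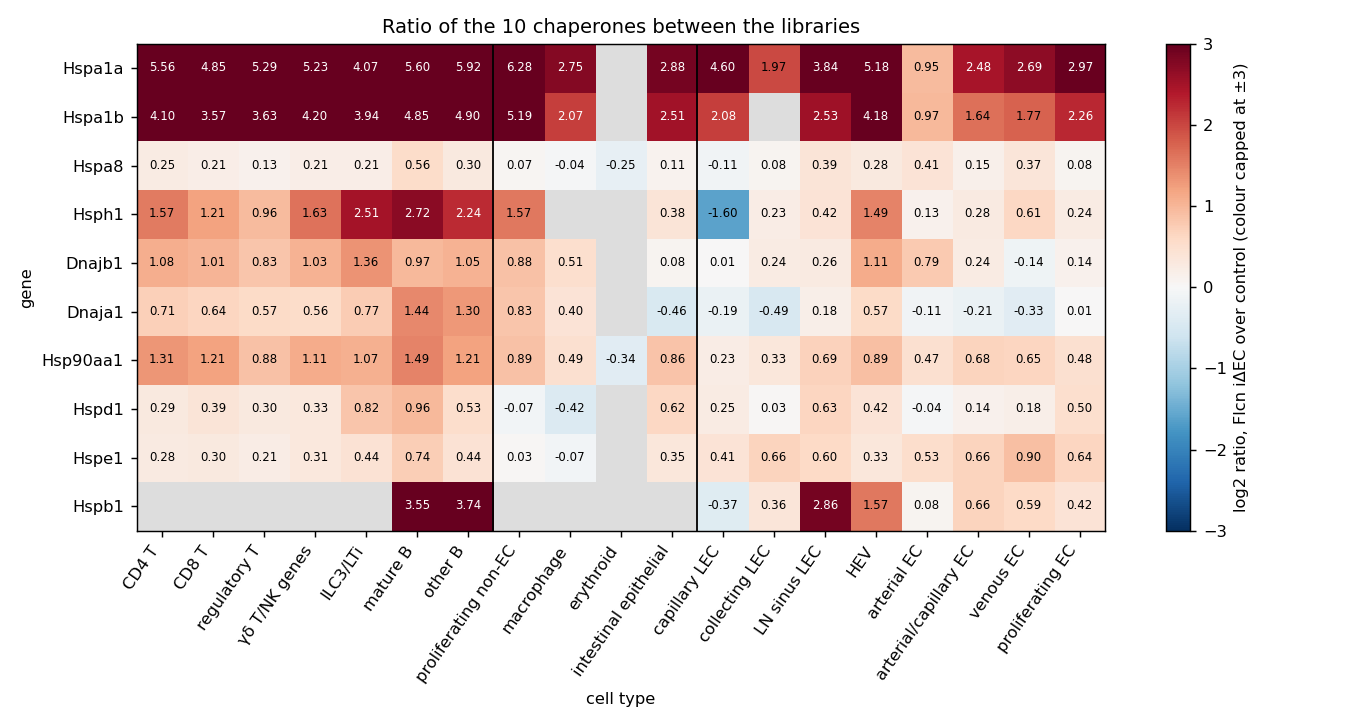
Log2 ratio of Flcn iΔEC over control, with 1 count added to each sum, for each member (rows) and cell type (columns), colour capped at ±3 and values printed in the cells, and grey where a member had under 50 UMIs over both libraries. Hspa1a and Hspa1b are positive in every coloured cell, and the HEV column resembles those of the lymphocytes in Hsph1, Dnajb1 and Dnaja1.

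Counts of members were read against all genes with at least 50 UMIs over both libraries in the type, called when at least 2-fold higher in Flcn iΔEC. The members' counts use the contrast known when the list was made and support nothing. In CD4 T cells 5 of the 9 members measured were called (Hspa1a, Hspa1b, Hsph1, Dnajb1 and Hsp90aa1), where 1.1% of all genes were. The same 5 were called in CD8 T cells (0.659% of all genes), γδ T/NK-gene cells (0.922%) and innate lymphoid cells (0.72%). Regulatory T cells had only the 2 inducible HSP70 genes (0.956% of all genes). In mature B cells 6 of 10 were called (0.792% of all genes) and in the remaining B cells 7 of 10 (1.11%), with Dnaja1 and Hspb1 added. Dnajb1, at 1.96-fold, just missed in mature B cells. The proliferating non-endothelial cells had 3 of 9 (1.31% of all genes), with Hsph1 added to the HSP70 genes.

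Macrophages had 2 of 8 (7.32% of all genes) and intestinal epithelial cells 2 of 9 (2.85%), Hspa1a and Hspa1b in both. Erythroid cells had 2 members measured, Hspa8 and Hsp90aa1, and neither was called (0.408% of all genes). HEV cells had 5 of 10 (2.58% of all genes), namely Hspa1a, Hspa1b, Hsph1, Dnajb1 and Hspb1. Lymph node sinus LECs had 3 of 10 (3.11%), and 2 of 10 were called in capillary LECs (3.75%), Cxcl12-led cells (2.47%), venous cells (3.25%) and proliferating endothelial cells (3.68%). Collecting LECs had 1 of 9 (5.08%) and arterial cells 0 of 10 (2.54%), with Hspa1a at 1.94-fold and Hspa1b at 1.97-fold. The one member called at least 2-fold lower in any type was Hsph1 in capillary LECs. Over pooled lymphocytes 6 of 10 were called (1.64% of all genes) and over pooled endothelial cells 2 of 10 (3.61%). Members under 50 UMIs were Hspb1 in 5 lymphocyte types, the proliferating non-endothelial cells, macrophages and epithelium, Hsph1 in macrophages, Hspa1b in collecting LECs and 8 members in erythroid cells.

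The other 83 genes of 11 lists by role, called other chaperones here, had medians close to that of all genes in both pools. The lists also hold heat shock factors such as Hsf1, which are transcription factors and not chaperones. In pooled lymphocytes 73 were measured and 2 were at least 2-fold higher (1.64% of all genes). They were the J-domain gene Dnaja4 and Bag3, an exchange partner of HSP70 and a known HSF1 target. None of the 73 was lower, and the median log2 ratio of the 73 was -0.07 beside -0.04 for all genes and 1.17 for the members. By type, CD4 T cells had 3 of 71 higher, Hspa2, Dnaja4 and Bag3 (1.1% of all genes). Innate lymphoid cells had Dnaja4 among 67 (0.72%) and regulatory T cells Bag4 among 65 (0.956%). None was higher in CD8 T, γδ T/NK-gene, mature B and the remaining B cells. HEV cells had the same 2 genes as the pool among 73 (2.58% of all genes). In pooled endothelial cells 77 were measured, none was higher and Cryab, the small heat shock protein αB-crystallin, was lower (5.8% of all genes), with a median of -0.04 beside -0.14 for all genes and 0.40 for the members. The TRiC chaperonin had a median of -0.01 in lymphocytes, mitochondrial chaperones with Hspd1 and Hspe1 included -0.11, and chaperones of the endoplasmic reticulum -0.20. Hspa5, the HSP70 of the endoplasmic reticulum, was at 552 and 570 CPM in lymphocytes and at 613 CPM in both endothelial libraries. Hsf1 was at 16.0 and 12.9 CPM in lymphocytes.

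Collecting LECs had 6 of 67 other chaperones at least 2-fold lower, where 7.58% of all genes were. Of these, 4 were among the 10 HSP90 co-chaperones measured (Ahsa2, Fkbp4, Chordc1 and Unc45a), whose median log2 ratio was -0.64 beside -0.20 for all genes. This list was singled out of the 11 after its values were seen. The control side rests on 22 cells, with 46 UMIs of Fkbp4, so no pattern of co-chaperones is read from it. Capillary LECs had 5 of 72 listed genes lower (6.56% of all genes), the heat shock factor Hsf1 among them. Arterial cells had 1 of 64 lower (2.51% of all genes), Cxcl12-led cells 2 of 58 (3.74%) and venous cells 1 of 70 (4.55%). Each of these shares was below that of all genes. The gene was Chordc1, an HSP90 co-chaperone, in each type, with Hspa2 beside it in Cxcl12-led cells. Macrophages had 1 of 38 lower (4.69% of all genes) and 1 higher, the mitochondrial Hspa9 (7.32%). Intestinal epithelial cells had 2 of 65 lower (9.63%). Regulatory T cells had 2 of 65 lower (0.986%), the proliferating non-endothelial cells 2 of 65 (1.21%) and γδ T/NK-gene cells 1 of 62 (1.1%).

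At 100 CPM or more in 1 library, 4 other chaperones were at least 2-fold lower in a type. P4hb, a disulfide isomerase, was at 708 and 243 CPM in intestinal epithelial cells (ratio 0.344). Fkbp4, an HSP90 partner, was at 101 and 48.0 CPM and Hspa4l, an HSP110 protein, at 178 and 88.8 CPM in collecting LECs. Dnajc2, a ribosome-associated J-domain protein, was at 126 and 59.3 CPM in macrophages. No other chaperone at that level was 2-fold higher in the types described.

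**Figure D5:**
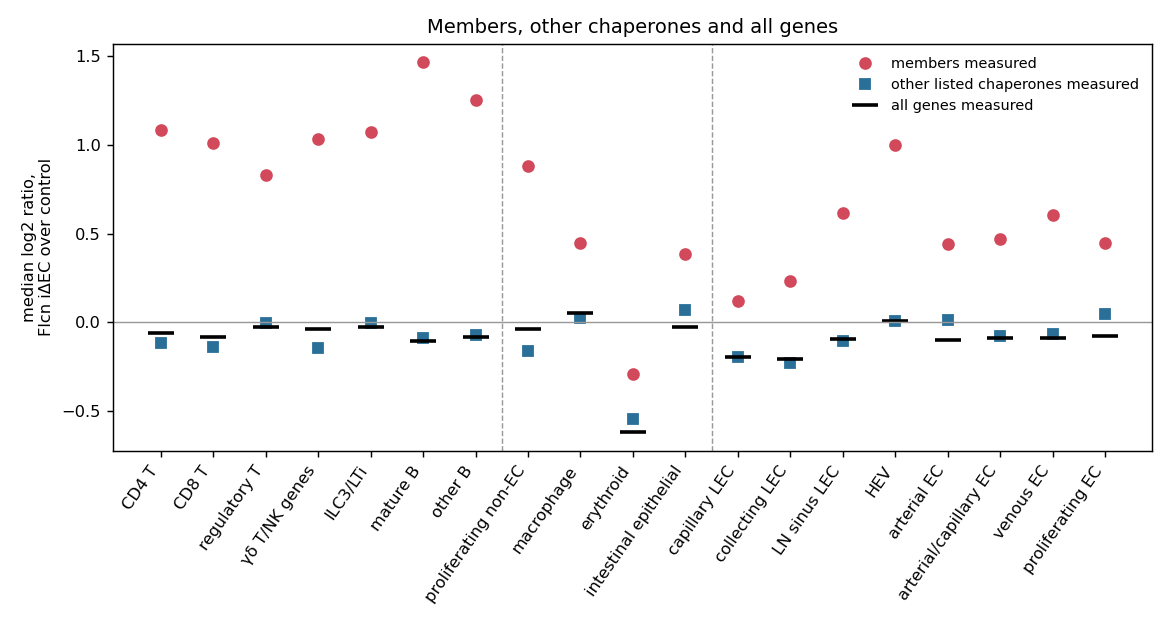
Median log2 ratio of Flcn iΔEC over control (y axis) in each cell type (x axis) for the members, the other listed chaperones and all genes measured. Member medians lie above both others in lymphocytes, at 0.83 to 1.46, and the other chaperones lie near all genes.

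Immediate early genes, which respond within minutes to stimulation and to tissue dissociation, were summed over 18 genes as a companion list. Their summed level was 12276 and 12965 CPM in lymphocytes, a ratio of 1.06, and 10379 and 8039 CPM in endothelial cells, a ratio of 0.775. By type the ratio ran from 0.594 in venous cells to 1.02 in HEV cells among endothelial types, and was 0.938 in macrophages and 0.883 in epithelium. The part of dissociation in the members' levels was not tested.

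Across 33 points of type and library with at least 50 cells, the levels most like Hspa1a on the log2(CPM + 1) scale among 6706 genes were those of Hspa1b (Pearson r = 0.97), Tsix (0.85), Gm8797 (0.84), Xist (0.82) and Irf7 (0.63). Tsix and Xist are the antisense and sense RNAs of the X inactivation centre, and their levels separate the 2 libraries. The part of sex in the levels of Hspa1a was not tested. Levels most like Hspa8 were those of Gpi1, Btf3, Cct4 and Cacybp (0.97 each) and Cct2 (0.96). Of these, Cct4 and Cct2 encode subunits of the TRiC chaperonin. Erythroid cells of the Flcn iΔEC library were among the points. Their Hspa8 level was 66.4 CPM, against 1241 to 2490 CPM in the other types of that library. How far this outlying type sets the r values with Hspa8 was not tested. The r of Hspa1a with the remaining members was 0.56 for Hsp90aa1, 0.55 for Dnajb1, 0.48 for Hsph1 and 0.38 for Dnaja1. It was 0.30 for Hspe1, 0.25 for Hspd1, 0.20 for Hspa8 and 0.04 for Hspb1. The points share 2 libraries, so these values are descriptions.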

How the data were processed

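Single CD31+ cells of 2 libraries, control and Flcn iΔEC, 1 per condition, were measured by Chromium 3′ v3 sequencing. The deposited files hold UMI counts per gene and cell, which the authors made with Cell Ranger 3.0 on build mm10, removing low-quality reads and PCR duplicates. All deposited cells were used. Libraries were anchor-integrated and clustered with Seurat 5.3.0 in R 4.3.3 (2000 variable features without the chaperone and immediate early lists, 30 dimensions, resolution 0.8), and the clusters of endothelial and other cells were drawn separately. A cluster was named when at least 3 genes of a marker list were at least 2-fold higher than in the other cells (endothelial clusters, the other endothelial cells) and 1 gene of that list or its parent list was among its 10 leading genes. Cxcl12-led cells passed for the arterial and the capillary list (13 of 19 genes). Doublets were called with Scrublet in scanpy 1.11.5 (142 control, 37 Flcn iΔEC) and kept, and leaving them out was an alternative. Counts were summed per type and library and scaled to CPM, with exact 95% Poisson intervals, and ratios have exact conditional binomial intervals. All intervals and floors of 3 counts cover counting error only. Cells are not replicates, so no test was run. Log2 ratios had 1 count added to each sum, and genes needed 50 UMIs over both libraries in a type for counts at 2-fold. The depth was 64639756 UMIs in control and 60805779 in Flcn iΔEC. Members and lists were chosen with earlier results of these data known. All 10 members were measured and drawn in each type of at least 50 cells in a library, and the text gives part of these values. Of the other chaperones it names those past 2-fold with at least 100 CPM in 1 library. Outside that rule it names Hsp90ab1, Hspa5, Hsf1, Hspa2, Hspa9, Bag3, Bag4, Dnaja4, Cryab, Ahsa2, Chordc1 and Unc45a, chosen after their values were seen. For likeness it names the 5 genes with the highest r to Hspa1a and to Hspa8. Intervals and ratios were tested on simulated data. Alternatives were a filter on cells (1000 UMIs, at most 10% mitochondrial), no doublets, CPM after leaving out hemoglobin, ribosomal protein and mitochondrial genes, mean CPM per cell, no integration, all variable features, resolutions of 0.4 and 1.6, other thinning, a minimum of 20 UMIs, 1.5-fold and no added count. Starts and upstream sequences are RefSeq's on GRCm38.p6, and gene positions and transcripts GENCODE vM21's.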

Additional observations from a re-analysis of the deposited data

Results flagged for a closer look

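In some types a member lay below 1, with its whole counting interval, while in pooled lymphocytes its interval lay above 1. By type all 7 lymphocyte intervals lay above 1 for Dnaja1, Hspa8 and Hsph1, but 5 of 7 for Hspb1. None of these differences between types was tested. For Dnaja1 the ratio of Flcn iΔEC over control was 0.877 in capillary LECs, 0.714 in collecting LECs, 0.865 in Cxcl12-led cells, 0.795 in venous cells, 0.728 in intestinal epithelial cells and 0.360 in erythroid cells, the last from 23 and 13 UMIs, of which 1 control cell held 14. Without the cell with the most UMIs in each library the interval of erythroid cells spanned 1, as did that of Hspa8 in capillary LECs. Capillary LECs also had ratios of 0.927 for Hspa8, 0.330 for Hsph1 and 0.780 for Hspb1.

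Cells that belong in no comparison above also differed in Hspa1a, with more in the Flcn iΔEC library. The ratio was 9.89 over all unnamed cells and 13.1 in an unnamed cluster led by pancreatic enzyme genes (46 control and 7 Flcn iΔEC cells). The unnamed cells had median mitochondrial shares of 16.5% in control and 20.8% in Flcn iΔEC, and 13.5% of the control ones were called doublets. Among them, an endothelial cluster of 45 Flcn iΔEC and 0 control cells has no ratio and was outside the endothelial pool. Its level of Hspa1a and Hspa1b together was 134 CPM, beside 455 CPM in the Flcn iΔEC endothelial pool. In named types with fewer than 50 cells in each library the Hspa1a ratio was 30.2 in immature B cells, 4.35 in fibroblasts and 13.6 in blood capillary endothelial cells.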

How the results depend on the processing

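No paired analysis was possible because each condition had 1 library. Under the alternatives the Hspa1a log2 ratio of lymphocytes stayed between 5.34 and 5.40. Averaging each cell's CPM moved it from 2.75 to 3.66 in macrophages and from 2.64 to 2.20 in endothelial cells. Without integration it was 2.47 in intestinal epithelial cells (main 2.88) and 3.16 in endothelial cells, and with all 2000 variable features it was 2.77 in endothelial cells. Of 216 recomputed log2 ratios, 215 kept their direction, and the other was Dnaja1 in endothelial cells, which ran from -0.12 to 0.11. Sizes moved too: in endothelial cells the log2 ratio of Hsph1 ran from 0.06 to 0.94 and that of Dnajb1 from 0.20 to 0.71. Among other chaperones, 1 was called higher in endothelial cells at 20 UMIs and 1 at 1.5-fold (main 0), and 4 in lymphocytes at 1.5-fold (main 2). The share of cells with Hspa1a was 3.16% (thinned to 1000 UMIs) and 13.3% (unthinned) in control lymphocytes, 52.1% and 80.9% in Flcn iΔEC lymphocytes, 3.51% and 26.3% in control endothelial cells, and 16.6% and 48.5% in Flcn iΔEC endothelial cells. Leaving out the cell with the most UMIs of a gene was added after seeing the data. Small types limit the precision: capillary LECs had 63 control cells and collecting LECs 22.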
